A study of Homo sapiens with 7 samples.

Results

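RNA sequencing of RH30 cells measured 10 interleukin and growth cytokine genes among the 57189 genes of the count table. They were taken by name as cytokines that tumor cells can make, several of them regulated by NF-κB or able to activate NK cells, and they are IL32, IL6, IL7, IL11, IL15, IL18, IL1A, LIF, CSF1 and IL12A. The choice was made with earlier results of these data known. RH30 is an established human alveolar rhabdomyosarcoma line, given as wild type in the labels, and the study's methods describe its RH30 cells as expressing GFP and luciferase. The groups were 4 libraries of untreated cells and 3 libraries of cells kept for 24 h in 5 µM BV6, a bivalent Smac mimetic that binds and depletes IAP proteins. BV6 replicates 2, 3 and 4 carry the same BC label in their titles as untreated replicates 2, 3 and 4, and untreated replicate 1 has no BV6 partner. What the BC label stands for is not given in the sources used here, so results with the replicate block rest on reading it as a pairing. All libraries came from 1 line. The study calls its replicates biological, and p-values measure the spread between these libraries.

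Most interleukins and colony-stimulating factors are secreted proteins that bind receptors on the same or on neighboring cells, many of them receptors of paired chains. Many of these receptors signal through JAK kinases and STAT factors, whereas receptors of the IL-1 family signal to NF-κB. Loss of cellular IAP proteins allows NF-κB-inducing kinase to accumulate, and several cytokine genes are known NF-κB targets. IL-15 and IL-12 are known as activators of NK cells, and the comparison asks which cytokine mRNAs differed between BV6-treated and untreated tumor cells.

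The cytokine mRNAs with the clearest differences were IL32 and CSF1, both higher with BV6, and IL11, which was lower. IL32 was 1.75-fold and CSF1 1.79-fold the untreated level, and IL11 was at 0.542 of it. All 3 passed edgeR's test once the replicate number was fitted as a block, and none passed it with the condition alone. IL32 and CSF1 also passed in 3 unblocked alternatives, DESeq2, edgeR without a filter on low counts and edgeR without BV6 replicate 3. LIF, IL15, IL7 and IL12A passed in neither fit, and IL6, IL18 and IL1A were close to the limit of detection in every library.

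Library totals lay between 54070030 and 77220882 counts, and 3 counts, the level below which a gene was not taken as detected, correspond to 0.0389 to 0.0557 CPM, the count scaled to a common library size. Of 23124 genes that passed a filter on low counts, edgeR's quasi-likelihood test with the condition alone called 0.394% higher and 0.0562% lower with BV6 at an adjusted p below 0.05. With the replicate block these shares were 0.649% and 0.294%. The median log2 fold change of all genes tested was -0.01. RH30 markers were present, with desmin (DES) at 606 to 865 CPM and the receptor gene FGFR4 at 526 to 933 CPM in untreated cells, and their BV6 values overlapped these for DES (451 to 790 CPM) and FGFR4 (211 to 578 CPM). The summed level of 9 rhabdomyosarcoma markers was 1855 to 2801 CPM untreated and 1113 to 2191 CPM with BV6, and none of them was called in either edgeR fit. Of the 9 markers, 2 had a log2 fold change above 0 and 7 below 0, with a median of -0.44. At an unadjusted edgeR p below 0.05, 0 were higher and 2 lower, beside 4.13% and 4.26% of all genes tested. DESeq2 with the replicate block called 1 of the 9 markers, the fetal acetylcholine receptor gene CHRNG (named after its values were seen), lower (adjusted p = 0.000935). CHRNG shares 66.9% of its exonic bases with TIGD1 on the opposite strand, and the use of strand in counting is not given in the sources used here. In bulk RNA, fewer cells of a kind and less RNA per cell cannot be told apart.

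Per kilobase of exon, the members spanned a wide range of levels in untreated cells. IL32 stood first at 75.4 ± 11.0 CPM per kb (SD, n = 4), above 97.3% of the tested genes with an annotated length. IL11 (12.8 ± 3.83 CPM per kb), CSF1 (11.5 ± 1.81) and LIF (7.36 ± 2.47) followed, of which IL11 and CSF1 differed by less than their SD, and CSF1 and LIF overlapped in single libraries. IL15 (0.948 ± 0.197 CPM per kb) and IL7 (0.735 ± 0.173) formed the next pair, again with overlapping values, and lay above 28.3% and 25.6% of the tested genes. IL12A was at 0.0848 CPM per kb, and IL1A, IL6 and IL18 were at 0.0241, 0.0205 and 0.0189 CPM per kb. With BV6 the order at the top was IL32 (132 CPM per kb), CSF1 (20.6), LIF (8.18 ± 2.77, SD, n = 3) and IL11 (6.94 ± 2.52), with LIF and IL11 closer than their SD. IL32 alone made up 61.2 to 67.8% of the members' summed CPM in untreated cells and 68.6 to 74.2% with BV6.

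**Figure D1:**
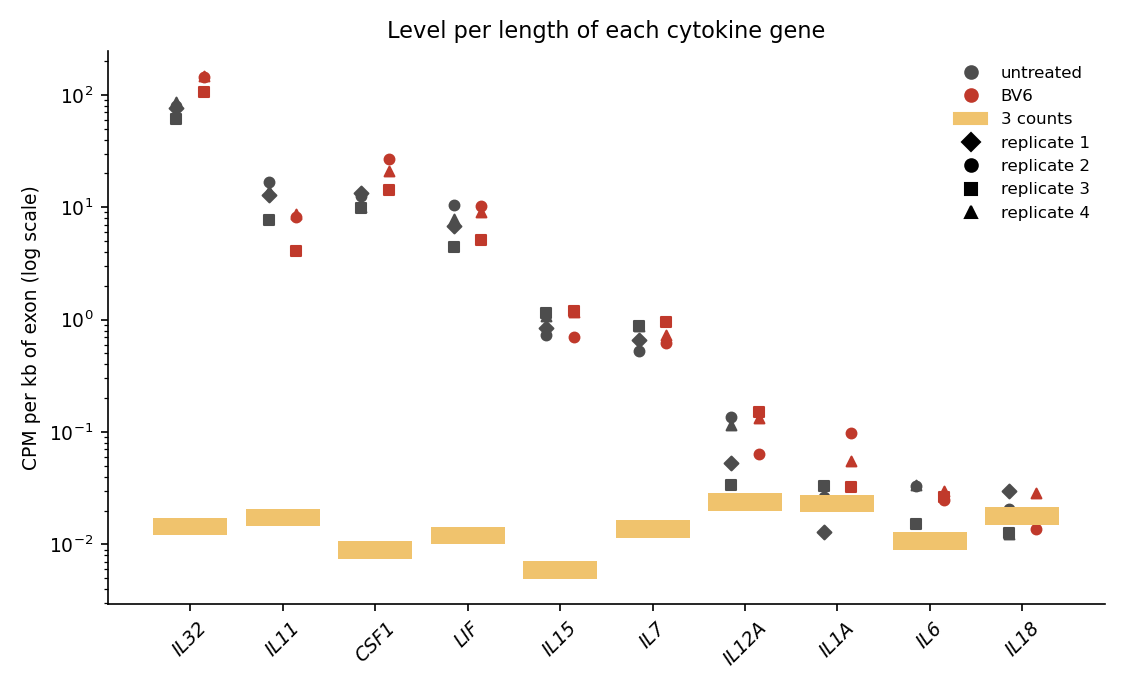
Level of each cytokine gene in CPM per kilobase of exon on a log axis, for 4 untreated libraries (gray) and 3 BV6 libraries (red), with the symbol giving the replicate and the band giving the level of 3 counts over the libraries. IL32 lies above all other members, IL12A, IL1A, IL6 and IL18 lie near the band, and the IL6 count of 0 in untreated replicate 1 cannot be drawn on this axis.

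IL32 encodes a proinflammatory cytokine without a close relative in the other cytokine families. The gene lies at chr16:3065297-3082192 on the plus strand (GRCh38, GENCODE release 44), and 4.02% of its exonic bases are shared with the small nuclear RNA gene RNU1-125P on the same strand. Its promoter is shown because NF-κB is the pathway the study addressed. Promoter windows from RefSeq (GRCh38.p14), 250 bases before to 50 bases after a gene's start, were searched for 5 of 10 members in 7 windows. No window of CSF1, LIF, IL15, IL18 or IL7 was searched. The first IL32 window, chr16:3065153-3065452 on the plus strand, is given 5′ to 3′ with the κB consensus match in capitals.
IL32: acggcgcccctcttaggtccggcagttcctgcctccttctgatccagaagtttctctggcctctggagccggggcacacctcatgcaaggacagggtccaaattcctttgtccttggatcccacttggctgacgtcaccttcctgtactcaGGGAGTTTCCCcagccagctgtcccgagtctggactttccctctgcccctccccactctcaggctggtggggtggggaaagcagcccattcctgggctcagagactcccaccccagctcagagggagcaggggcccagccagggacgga
The capitals cover overlapping matches on both strands, between 99 and 89 bases before the start, and the second IL32 window held none. A κB consensus match on either strand occurs in 5.91% of the 35116 RefSeq promoter windows of the same length, and a match describes letters and not binding.

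IL32 was measured at 243, 253, 194 and 278 CPM in untreated replicates 1 to 4. With BV6 it was measured at 459, 341 and 473 CPM in replicates 2 to 4. Every BV6 library lay above every untreated library, and replicate 3 was the lowest of both groups. A group order of this kind, with every BV6 library above, was found in 4.94% of the genes tested and the opposite order in 3.89%. Within pairs the log2 ratios were 0.86, 0.81 and 0.77, an increase in all 3 pairs, as in 15.5% of the genes tested, while 17.8% were lower in all 3. The log2 fold change was 0.81 ± 0.15 (SE, 95% interval 0.47 to 1.15, edgeR, adjusted p = 0.0711). With the replicate block it was 0.81 ± 0.08 (edgeR, adjusted p = 0.00800), so that IL32 rose in that fit. Over the 35 arrangements of 4 against 3 libraries, the exact two-sided permutation test gave p = 0.0571, the smallest value this design allows.

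CSF1 encodes macrophage colony-stimulating factor, which drives survival and differentiation of monocytes and macrophages. The gene lies at chr1:109910242-109930992 on the plus strand, with no exonic overlap listed. Untreated libraries held 70.6, 66.4, 51.9 and 53.0 CPM, and BV6 libraries held 140, 74.7 and 109 CPM. The groups did not overlap, but BV6 replicate 3 lay only just above the highest untreated library. Its pair gave a log2 ratio of 0.53, against 1.08 and 1.04 in replicates 2 and 4. The log2 fold change was 0.84 ± 0.20 (SE, 95% interval 0.38 to 1.29, edgeR, adjusted p = 0.176), and it was 0.88 ± 0.13 with the replicate block (edgeR, adjusted p = 0.0238). In the blocked fit CSF1 rose. The exact permutation test gave p = 0.0571 again.

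Without BV6 replicate 3, both IL32 (log2 fold change 0.95) and CSF1 (1.05) passed without the block as well, each at an edgeR adjusted p of 0.0265. Neither passed in any of the other 6 fits that left out 1 library.

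**Figure D2:**
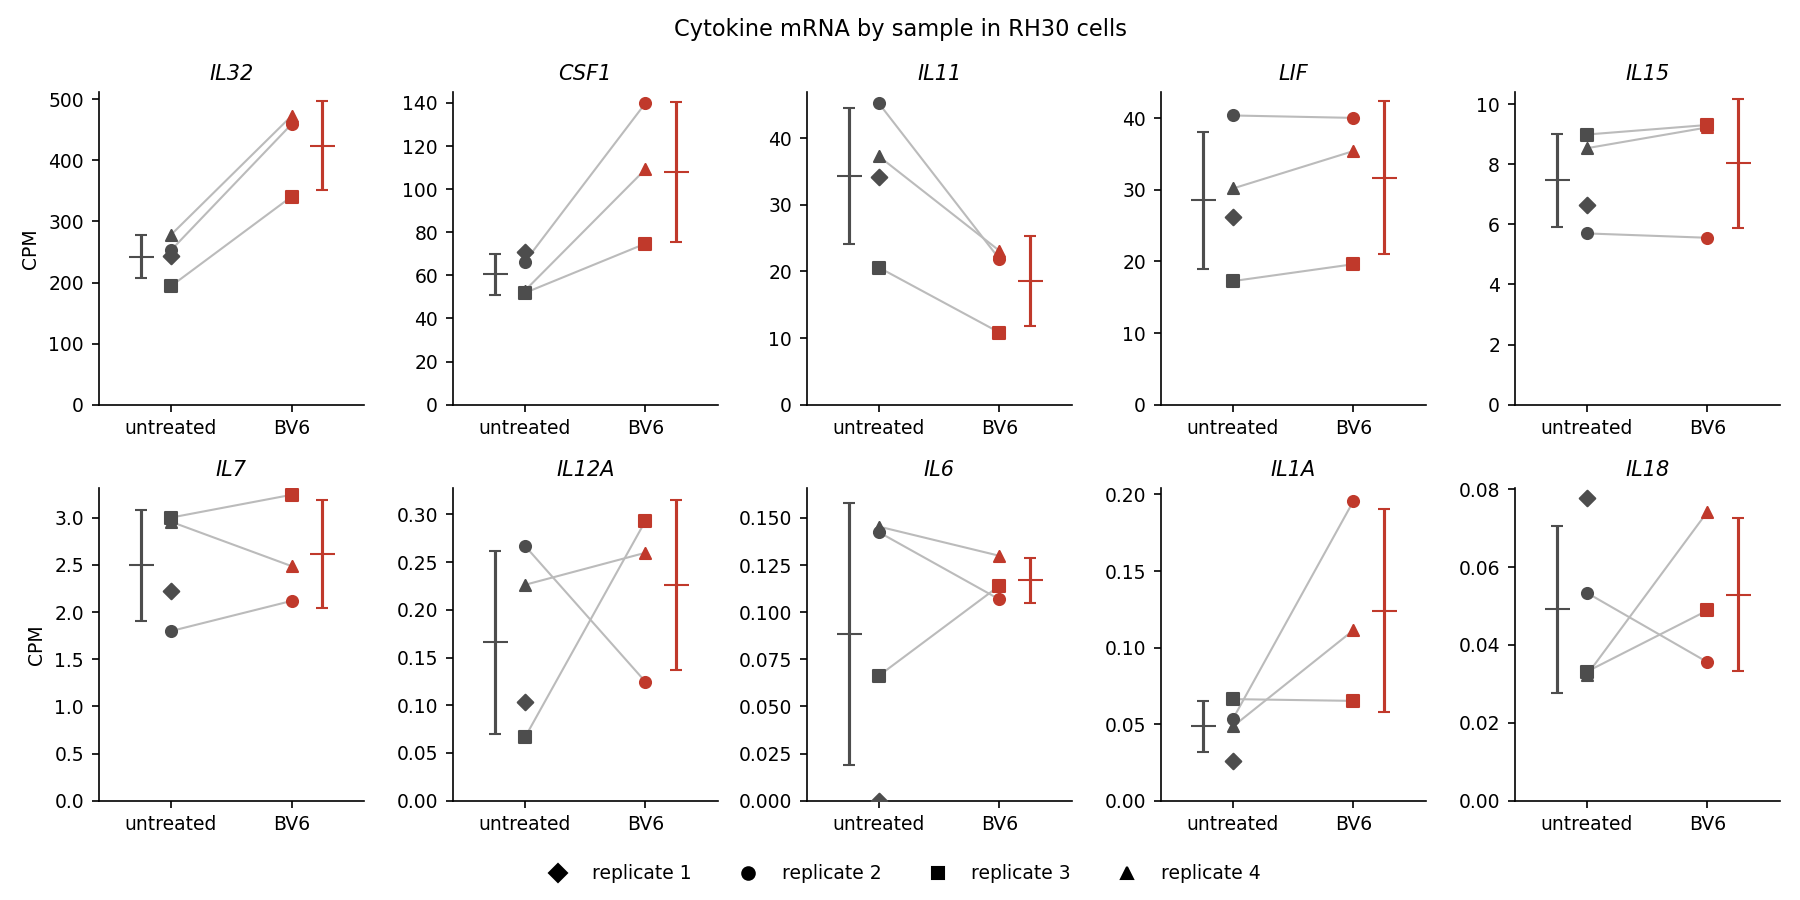
CPM of each of the 10 cytokine genes in every library (gray, untreated; red, BV6), with lines joining libraries of the same replicate number and bars giving the mean and SD of 4 untreated and 3 BV6 libraries. IL32 and CSF1 are higher in all BV6 libraries than in any untreated library, IL11 is lower in each pair with overlapping groups, and each panel has its own axis from 0.

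IL11, LIF and IL6 belong to the family whose receptors share the gp130 chain. IL11 is known from bone, platelet and stromal biology, and its gene lies at chr19:55364382-55370463 on the minus strand with no exonic overlap listed. Its promoter window, chr19:55370414-55370713 on the minus strand, held no κB consensus match but held an AP-1 motif (TGACTCA, searched on both strands). It is shown beside that of IL32 because IL11 was the member that was lower, with the motif as read on this strand in capitals.
IL11: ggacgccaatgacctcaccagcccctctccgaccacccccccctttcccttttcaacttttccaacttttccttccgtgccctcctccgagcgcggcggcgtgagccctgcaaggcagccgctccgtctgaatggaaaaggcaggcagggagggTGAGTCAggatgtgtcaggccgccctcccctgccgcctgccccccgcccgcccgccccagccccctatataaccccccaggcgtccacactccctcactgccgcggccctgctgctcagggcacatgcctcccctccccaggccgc
The motif lies between 96 and 90 bases before the start, and it occurs in 4.95% of the RefSeq windows.

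IL11 was measured at 34.2, 45.2, 20.6 and 37.3 CPM in untreated replicates 1 to 4 and at 21.9, 10.8 and 23.1 CPM with BV6. The groups overlapped, because untreated replicate 3 was below 2 BV6 libraries, while each BV6 library was below its own partner. The pairs gave log2 ratios of -1.05, -0.93 and -0.69. The log2 fold change was -0.88 ± 0.31 (SE, 95% interval -1.58 to -0.19, edgeR, adjusted p = 0.440) without the block. With the replicate block it was -0.89 ± 0.12 (edgeR, adjusted p = 0.0169), so that IL11 fell in that fit. The exact permutation test without pairs gave p = 0.171. No fit that left out 1 library called IL11 without the block.

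LIF, the leukemia inhibitory factor gene, lies at chr22:30240453-30246759 on the minus strand, and 2.22% and 2.14% of its exonic bases are shared with the antisense genes LIF-AS1 and LIF-AS2. It stood at 26.2, 40.4, 17.2 and 30.2 CPM untreated and at 40.0, 19.6 and 35.4 CPM with BV6. Replicate 2 was the highest and replicate 3 the lowest in both groups, and the highest library held 2.34-fold the lowest untreated and 2.04-fold with BV6. The log2 fold change was 0.15 (95% interval -0.52 to 0.82, edgeR, adjusted p = 0.915), and the replicate block narrowed the interval to -0.11 to 0.38 (edgeR, adjusted p = 0.689).

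IL6, the acute-phase cytokine, lies at chr7:22725884-22732002 on the plus strand, and 9.91% of its exonic bases are shared with IL6-AS1 on the opposite strand. Its window, chr7:22726950-22727249 on the plus strand, is shown because it holds a κB consensus match as IL32 does, in capitals, between 73 and 64 bases before the start.
IL6: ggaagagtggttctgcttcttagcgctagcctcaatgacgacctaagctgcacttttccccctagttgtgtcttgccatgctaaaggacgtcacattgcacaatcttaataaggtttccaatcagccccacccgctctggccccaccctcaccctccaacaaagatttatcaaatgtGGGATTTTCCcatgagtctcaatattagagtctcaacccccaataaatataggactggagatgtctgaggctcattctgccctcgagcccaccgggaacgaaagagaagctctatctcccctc
IL6 had 0, 8, 4 and 9 counts in the untreated libraries and 6, 7 and 7 counts with BV6, and it did not pass the filter. The summed rate was 0.0822 CPM (95% exact Poisson interval 0.0509 to 0.126) untreated and 0.117 CPM (0.0713 to 0.180) with BV6. The ratio was 1.42 with a counting interval of 0.730 to 2.75, so that a difference was not detectable at this depth. Without untreated replicate 1, which had 0 counts, the ratio was 0.991 (0.510 to 1.92). Leaving out any other single library gave ratios of 1.34 to 1.88. Such intervals cover counting error only. Of the 5 members searched, 3 held a κB consensus match, since IL12A, which was called in no fit, held one too. Several members were taken as NF-κB regulated, and the share of 5.91% is of windows and not of genes. The count of members therefore cannot be set against that share. AP-1 motifs were held by 2 of the 5, IL11 and IL1A.

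IL7 and IL15 signal through receptors that share the common gamma chain and sustain lymphocytes, with IL-15 acting on NK cells in particular. IL15, at chr4:141636583-141733987 on the plus strand, was measured at 6.66, 5.70, 8.99 and 8.53 CPM untreated and at 5.55, 9.30 and 9.22 CPM with BV6. Its log2 fold change was 0.10 (95% interval -0.42 to 0.62, edgeR, adjusted p = 0.926). IL7, at chr8:78675743-78805523 on the minus strand, stood at 2.22, 1.80, 3.001 and 2.96 CPM untreated and at 2.12, 3.24 and 2.49 CPM with BV6. Its log2 fold change was 0.07 (95% interval -0.48 to 0.62, edgeR, adjusted p = 0.956), and 9.49% of its exonic bases overlap ZC2HC1A on the opposite strand. For these genes replicate 3 was the highest library of each group, whereas it was the lowest of each group for IL32, CSF1, IL11 and LIF. With the replicate block the log2 fold changes were 0.04 for IL15 (edgeR, adjusted p = 0.937) and 0.03 for IL7 (edgeR, adjusted p = 0.971).

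IL12A encodes the p35 subunit that IL-12 and IL-35 share, and it lies at chr3:159988835-159996019 on the plus strand. It had 8, 15, 4 and 14 counts untreated and 7, 18 and 14 counts with BV6, or 0.166 ± 0.0960 CPM (SD, n = 4) and 0.226 ± 0.0893 CPM (SD, n = 3). The pairs went in different directions, with log2 ratios of -0.93, 1.72 and 0.18. These ratios were taken after 2 counts, scaled to library size, were added to each library, which shrinks ratios of low counts. The 95% interval of the log2 fold change ran from -0.76 to 1.68 (edgeR, adjusted p = 0.842).

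IL1A and IL18 belong to the IL-1 family, many of whose members are alarm signals processed by proteases. IL1A, at chr2:112773925-112784493 on the minus strand, had 2, 3, 4 and 3 counts untreated and 11, 4 and 6 counts with BV6. The summed rate was 0.0470 CPM untreated and 0.122 CPM with BV6, a ratio of 2.61 (counting interval 1.23 to 5.81). BV6 replicate 2 held 11 of the 21 BV6 counts, and without it the ratio was 1.85 (0.715 to 4.66). IL18, at chr11:112143253-112164096 on the minus strand, had 6, 3, 2 and 2 counts untreated and 2, 3 and 4 counts with BV6, a ratio of 1.03 (0.389 to 2.61). Neither passed the filter, and a fit without the filter gave edgeR adjusted p values of 0.781 for IL1A, 0.990 for IL18 and 0.910 for IL6. In that fit 0.389% of genes were called higher and 0.168% lower.

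Of the 10 members, 7 passed the filter. Without the block edgeR called 0 of the 7, beside 0.394% of all genes higher and 0.0562% lower. At an unadjusted edgeR p below 0.05, 2 of the 7 were higher and 1 lower. Over all genes tested, 4.13% were higher and 4.26% lower at that unadjusted threshold. With the block edgeR called 2 higher and 1 lower, where it called 0.649% of all genes higher and 0.294% lower. DESeq2's Wald test without the block called IL32 (adjusted p = 0.00274) and CSF1 (adjusted p = 0.0296) but not IL11 (adjusted p = 0.145), where it called 1.02% of all genes higher and 0.678% lower. DESeq2 with the replicate block called all 3, where it called 1.24% higher and 1.15% lower. The median log2 fold change of the 7 tested members was 0.15, beside -0.01 for all genes tested. The members and the gene lists below were chosen with earlier results of these data known. Shares of members or list genes beside those of all genes are therefore descriptions and test no group.

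**Figure D3:**
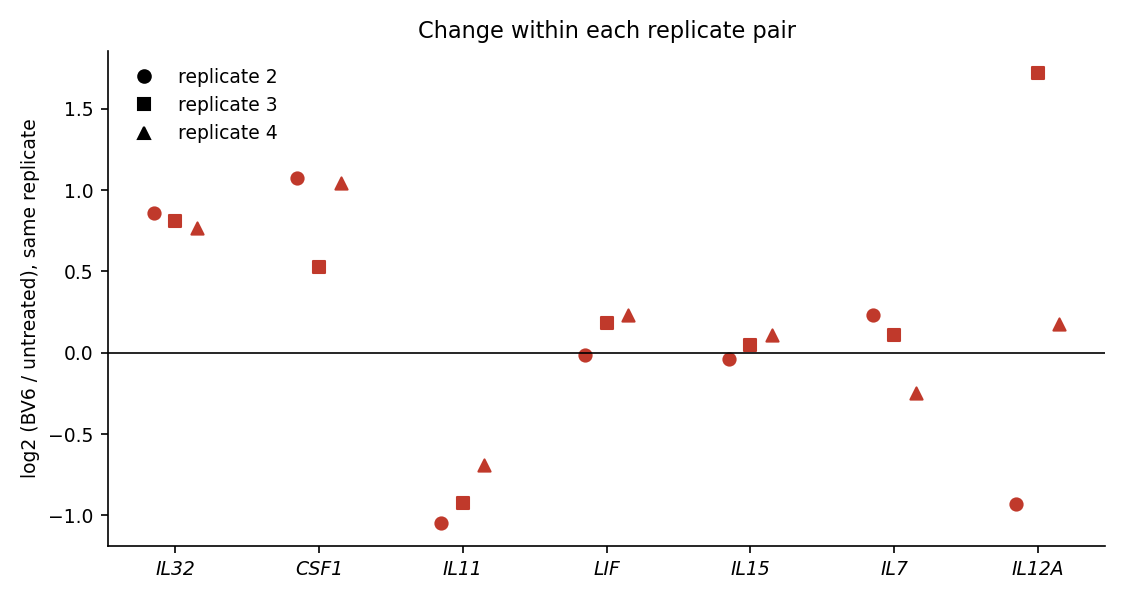
Log2 ratio of BV6 to untreated CPM within replicates 2, 3 and 4 for the 7 cytokine genes that passed the filter. The ratios were taken after 2 counts, scaled to library size, were added to each library. IL32 (0.77 to 0.86) and CSF1 (0.53 to 1.08) lie above 0 and IL11 (-1.05 to -0.69) below 0 in all 3 pairs, and IL12A spreads from -0.93 to 1.72.

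**Figure D4:**
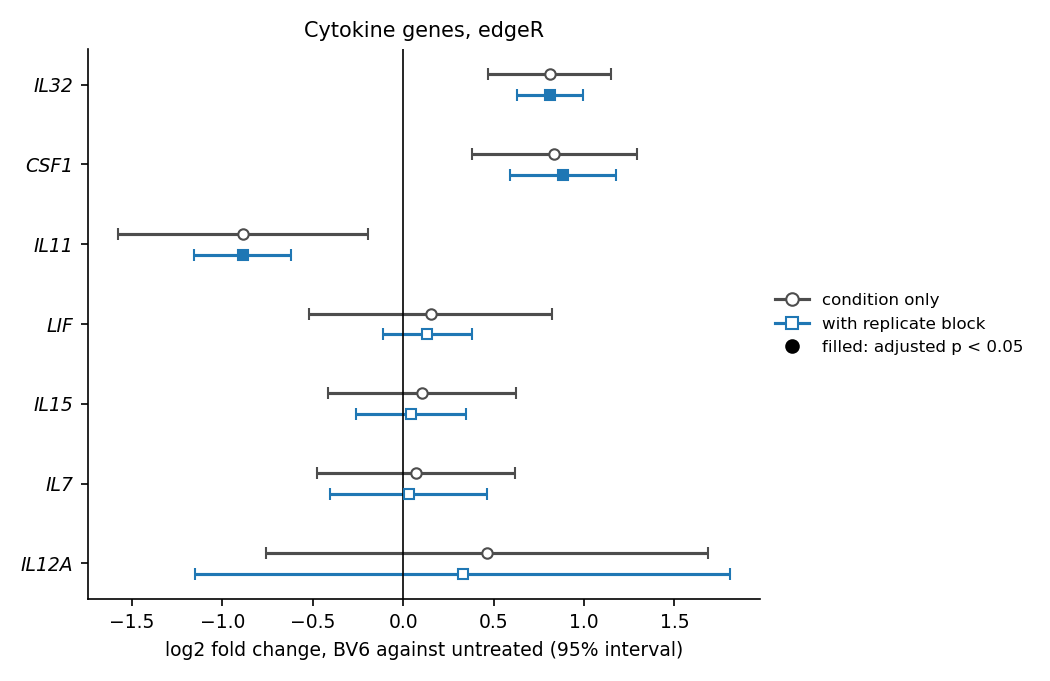
Log2 fold change of BV6 against untreated with its 95% interval for the 7 tested cytokine genes, from edgeR with the condition only (gray circles) and with the replicate block (blue squares). Filled symbols have an adjusted p below 0.05, which only IL32, CSF1 and IL11 reach, and only with the block.

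Of 15 receptor chains for the members, 12 passed the filter. IL7R, the specific chain of the IL-7 receptor, was the only one called in both edgeR fits. In these fits 0.394% (condition alone) and 0.649% (with the block) of all genes were called higher. At an unadjusted edgeR p below 0.05, 4 of the 12 were higher and 1 lower, beside 4.13% and 4.26% of all genes tested. IL7R was measured at 5.50, 6.05, 6.37 and 8.42 CPM untreated and at 14.9, 16.0 and 20.4 CPM with BV6, with no overlap. IL7R rose by a log2 fold change of 1.38 ± 0.18 (SE, edgeR, adjusted p = 0.0145), or 1.30 with the replicate block (edgeR, adjusted p = 0.00800). The call depended on single libraries, since it was lost without untreated replicate 1, 2 or 3 or BV6 replicate 4, with edgeR adjusted p values of 0.0512 to 0.0733. The ligand IL7 passed in neither fit.

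The gp130 chain IL6ST, shared by the receptors of IL-6, IL-11 and LIF, was the highest receptor gene, at 187, 245, 212 and 219 CPM untreated and 338, 315 and 267 CPM with BV6. The groups did not overlap, and the log2 fold change was 0.51 (95% interval 0.23 to 0.78, edgeR, adjusted p = 0.181, and with the replicate block 0.44 and edgeR adjusted p = 0.0816). DESeq2 with the replicate block called IL6ST higher (adjusted p = 0.0330). LIFR, the partner chain for LIF, ranged from 66.8 to 81.9 CPM untreated and from 66.5 to 99.0 CPM with BV6 (log2 fold change 0.14, edgeR, adjusted p = 0.821). The following receptor genes were chosen after their values were seen. The IL-6 binding chain IL6R had at most 9 counts in any library and was not tested. IL18R1 and IL18RAP, the IL-18 receptor chains, had at most 6 and 8 counts and were not tested either. IL11RA, the IL-11 binding chain, was at 6.93 CPM untreated and 6.02 CPM with BV6 (log2 fold change -0.21, edgeR, adjusted p = 0.806), and it shares 32.5% of its exonic bases with a protein-coding gene on the same strand.

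IL2RG, the common gamma chain used by IL-7 and IL-15, was at 0.882, 0.712, 1.13 and 1.00 CPM untreated and at 1.49, 2.31 and 2.80 CPM with BV6. Its groups did not overlap, and its log2 fold change was 1.24 (95% interval 0.64 to 1.84, edgeR, adjusted p = 0.123, and with the replicate block edgeR adjusted p = 0.0583). DESeq2 called it (adjusted p = 0.00385), but 51.3% of its exonic bases are shared with another protein-coding gene on the same strand, and how such reads were counted is not given in the sources used here. IL12RB1, a chain of the IL-12 receptor, reached at most 37 counts (log2 fold change 1.45, edgeR, adjusted p = 0.289). The IL-1 receptor accessory chain IL1RAP was at 7.69 to 9.21 CPM untreated and 5.37 to 6.78 CPM with BV6 (log2 fold change -0.45, edgeR, adjusted p = 0.416), with no overlap. CSF1R, the receptor of CSF1, was at 12.7 CPM untreated and 14.4 CPM with BV6 (log2 fold change 0.18, edgeR, adjusted p = 0.896). The median log2 fold change of the 12 tested chains was 0.16.

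**Figure D5:**
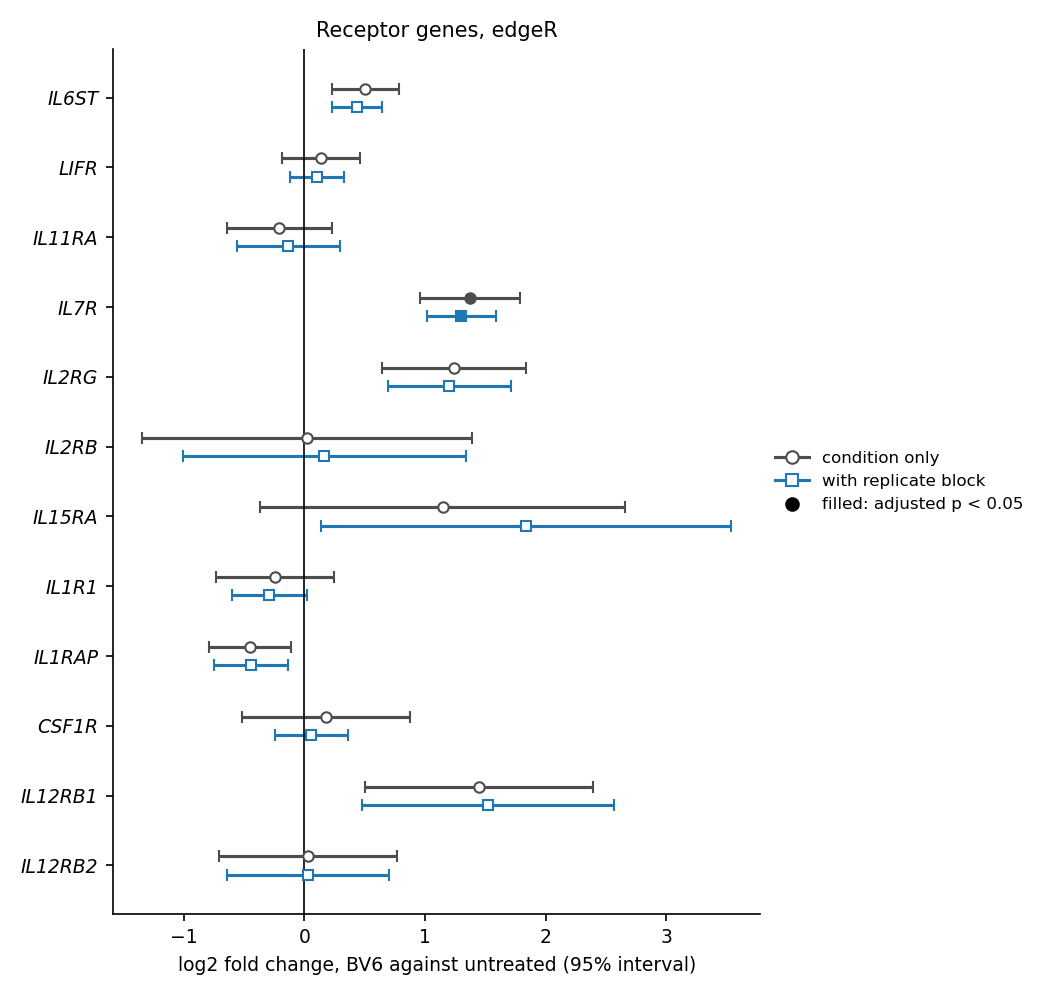
Log2 fold change of BV6 against untreated with its 95% interval for the 12 receptor genes that passed the filter, from edgeR with the condition only (gray circles) and with the replicate block (blue squares). IL7R alone has filled symbols, which mark an adjusted p below 0.05.

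Among 11 genes for decoy receptors, antagonists and processing proteases, 7 were tested and none was called in either edgeR fit or by DESeq2 without the block, and none had an unadjusted edgeR p below 0.05. The protease genes CAPN2 (calpain 2; 420 CPM untreated and 428 CPM with BV6) and ADAM10 (327 and 329 CPM) were the highest. Of 23 further cytokines of the IL-6, IL-1 and IL-12 families and colony-stimulating factors, 12 were tested and none was called by these fits. At an unadjusted edgeR p below 0.05, which 4.13% of all genes passed upward and 4.26% downward, there was 1 of the 12, CSF3, named after its values were seen (granulocyte colony-stimulating factor; at most 26 counts; log2 fold change 1.24, edgeR, adjusted p = 0.452). The highest was KITLG, the ligand of KIT (18.1 CPM untreated and 15.2 CPM with BV6). The median log2 fold changes of these lists were 0.03 and 0.05.

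JAK-STAT genes that act after cytokine receptors or feed back on them numbered 16, and 15 were tested. None was called in either edgeR fit or by DESeq2 without the block, and 1 of the 15 had an unadjusted edgeR p below 0.05, beside 4.13% of all genes higher and 4.26% lower. That gene, SOCS2, a suppressor of cytokine signaling, was chosen after its values were seen and went from 0.512 to 0.856 CPM (log2 fold change 0.74, edgeR, adjusted p = 0.438). STAT3, the factor used by gp130, was at 256 CPM untreated and 277 CPM with BV6, and JAK1 at 203 and 232 CPM (log2 fold changes 0.11 and 0.19). The median of the list was 0.11.

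As a reference, 6 of 8 NF-κB response genes were called higher without the block and all 8 with it, with a median log2 fold change of 1.37. Over all genes tested, edgeR called 0.394% higher without the block and 0.649% with it. The 8 genes were chosen with earlier results of these data known, so their calls are not independent evidence. The IAP gene BIRC3 went from 2.44 to 70.4 CPM (log2 fold change 4.86, edgeR, adjusted p = 0.00341) and the adaptor gene TRAF1 from 12.1 to 145 CPM (3.58). NFKBIA, the inhibitor IκBα, rose by 2.17, NFKB2 by 1.67, the interferon regulatory factor IRF1 by 1.07 and the deubiquitinase TNFAIP3 by 0.86 on the log2 scale. The calls of IRF1 (edgeR, adjusted p = 0.0478) and TNFAIP3 depended on single libraries. Without the block, IRF1 was called in 1 of 7 fits that left out 1 library and TNFAIP3 in 3 of 7. NFKBIA and NFKB2 were each called in 6 of 7. NFKB1 (0.60) and RELB (0.90) passed only with the replicate block (edgeR, adjusted p = 0.0454 and 0.0322). The log2 fold changes of IL32 and CSF1 were 0.81 and 0.84. These lay above that of NFKB1 and below those of all the other genes on this list, and no test compared them.

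The 5 genes whose log2 CPM followed that of IL32 most closely over the 7 libraries were NFE2L1 (Pearson's r = 0.989), AL358472.6 (0.985), SMG1P7 (0.985), AL590560.1 (0.981) and TNFRSF9 (0.978). These are descriptions over libraries that share the group difference. Of these 5, TNFRSF9, the costimulatory receptor 4-1BB, was the one called without the block (log2 fold change 2.87, edgeR, adjusted p = 0.00574), and NFE2L1, a transcription factor gene, had a log2 fold change of 0.33 (edgeR, adjusted p = 0.312). SMG1P7 is a pseudogene with near-identical copies, so its counts are uncertain.

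Markers of other cells that make cytokines were summed beside these values. The 9 leukocyte markers summed to 117 to 147 CPM untreated and 66.3 to 105 CPM with BV6, mostly through LAPTM5 (96.6 and 60.4 CPM; called with the block at an edgeR adjusted p = 0.0374) and CORO1A (21.1 and 14.6 CPM). The macrophage marker CD68, named after its values were seen, was at 2.96 CPM untreated and 4.73 CPM with BV6, without overlap (log2 fold change 0.68, edgeR, adjusted p = 0.459). However, 81.6% of the exonic bases of CD68 are shared with a long noncoding RNA gene on the same strand. Of the 8 leukocyte markers tested, 2 had a log2 fold change above 0 and 6 below 0. The pan-leukocyte gene PTPRC was at 0.378 and 0.465 CPM and the T-cell gene CD3E at 0.205 and 0.102 CPM, both also named after their values were seen. The 4 endothelial markers summed to 48.9 to 69.4 CPM untreated and 26.6 to 58.7 CPM with BV6, with PECAM1 at 59.3 and 40.2 CPM and VWF at 0.816 and 1.48 CPM. The 4 fibroblast markers summed to 14.2 to 20.8 CPM untreated and 21.2 to 29.1 CPM with BV6, with PDGFRB at 14.8 and 20.6 CPM and LUM at 2.52 and 2.29 CPM. None of the endothelial or fibroblast markers was called in either edgeR fit, while DESeq2 with the replicate block called PECAM1 lower (adjusted p = 0.00812), and the part of these markers in the cytokine values was not tested.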

How the data were processed

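RNA of RH30 cells was sequenced from poly(A)-selected, stranded TruSeq libraries. The authors deposited raw counts per gene, made by mapping reads to GRCh38 with STAR 2.6.1d, as the submitters' processing notes name it, and counting over the merged isoforms of Ensembl genes. The counting program, its use of strand, its handling of overlapping genes and whether both mates of a pair were counted are not given in the sources used here. The library totals are larger than the numbers of reads per library in the study's methods, as they would be if both mates were counted, and counting intervals would then be too narrow.

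Counts of all 7 libraries were analyzed with edgeR 4.0.16 under R 4.3.3, using its filterByExpr at a minimum count of 10, TMM scaling and the quasi-likelihood test of the condition, and Benjamini-Hochberg adjustment over 23124 genes. CPM refers to library totals (54070030 to 77220882 counts) multiplied by their TMM factors, and the scripts were tested on simulated data. A fit with the replicate block was placed beside it, since the titles share BC labels, whose meaning is not given in the sources used here. Untreated replicate 1 adds nothing to the BV6 effect in that fit. Deviations of same-numbered libraries from the means of the paired libraries correlated at 0.515, 0.322 and 0.197 for replicates 2, 3 and 4. Differently numbered libraries reached at most 0.132 there. With untreated replicate 1 in the mean, the same-numbered values were 0.462, 0.438 and 0.0847. BV6 replicate 4 then correlated more with untreated replicate 1 (0.278) than with its partner, and BV6 replicate 3 at 0.261 with untreated replicate 4. Ratios within pairs, permutation tests and correlations used log2 CPM after 2 counts, scaled to library size, were added to each library. DESeq2 1.42.0, limma-voom (limma 3.58.1), RLE size factors, no filter, a minimum of 10 counts in every library, and leaving out each library were alternatives. Gene positions and exon lengths came from GENCODE, and promoter windows from RefSeq (GRCh38.p14).

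The members and gene lists were chosen with earlier results of these data known. Named genes are all members, the list genes with an adjusted p below 0.05 in either edgeR fit, the 2 most abundant genes of each list, and the 5 genes most correlated with the member of smallest p. One gene that this rule names is not reported here. Others are marked as chosen after their values were seen.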

Additional observations from a re-analysis of the deposited data

Results flagged for a closer look

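STAT3 in untreated replicate 2 (231.676 CPM) stood apart from the other 3 untreated libraries, which lay at 262 to 268 CPM, by a gap of 0.851 of the group's range in Dixon's test. This test was run on the 4 untreated values of 29 genes, and chance alone flags about 1 in 20 groups. None of the 10 cytokine genes was flagged in this way.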

How the results depend on the processing

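Directions of IL32, CSF1 and IL11 held under every alternative run, but their calls did not. Members called higher numbered 0 without the block and 2 with DESeq2, without the filter, with the replicate block and with DESeq2 and the block, and members called lower numbered 1 with the replicate block in either tool and 0 otherwise. Leaving out 1 library gave 0 to 2 members called higher, 2 only without BV6 replicate 3. Log2 fold changes of IL32 that passed were 0.79 with DESeq2, 0.80 without the filter (edgeR, adjusted p = 0.00511), 0.81 with the replicate block and 0.80 with DESeq2 and the block, and leaving out 1 library gave 0.72 to 0.95. For CSF1 these were 0.82, 0.82 (edgeR, adjusted p = 0.0250), 0.88 and 0.87, and 0.61 to 1.05. For IL11 they were -0.89 with the replicate block and -0.90 with DESeq2 and the block, and leaving out 1 library gave -1.08 to -0.61. Single libraries turned the direction of changes near 0, which ranged from -0.11 to 0.21 for IL7, from -0.011 to 0.32 for IL15 and from -0.047 to 0.41 for LIF. The median log2 fold change of the tested members ranged from 0.11 to 0.36 when 1 library was left out, and it was 0.36 without untreated replicate 2 and 0.32 without BV6 replicate 2. Receptors called higher numbered 2 with DESeq2, 2 without the filter, 3 with DESeq2 and the block, and 0 to 1 when 1 library was left out. Calls over all genes, 91 higher and 13 lower, were 150 and 68 with the replicate block, 245 and 163 with DESeq2, 267 and 247 with DESeq2 and the block, and 169 and 73 without the filter. The cause of these differences was not tested. At this depth IL6, IL18 and IL1A could be compared only within wide counting intervals.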
